A study of Mus musculus with 6 samples.

Results

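Leukocyte microRNAs (miRNAs) are described here in small RNA libraries of mouse cardiomyocytes: both arms of miR-142a, miR-223, miR-150, miR-155, miR-146a and miR-146b. These 6 hairpins were taken by name, and every row of a mature arm with one of those names was kept, which gave 12 arms among 1952 mature miRNAs. At least 1 count was found for 11 of the 12, since miR-146a-3p had 0 counts in all 6 libraries. The libraries came from cardiomyocytes of C57BL/6 mice: 2 adult knockout (LncSync-/-) and 2 adult wild-type libraries, and 1 knockout and 1 wild-type library of e13.5 embryos. The knockout lacks lncSync, a long non-coding RNA. The sources used here do not give the age of the adults, the nature of the knockout allele, the number of animals per library or the way the cells were isolated. P-values therefore measure the spread between libraries, which may be technical.

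A miRNA is cut from a hairpin precursor, and either its 5p or its 3p arm can be loaded into the silencing complex, where bases 2 to 8, the seed, choose the targets. Several miRNAs mark blood cells. miR-142 is made throughout the haematopoietic lineage, miR-223 is abundant in neutrophils and other myeloid cells, and miR-150 is abundant in mature lymphocytes. miR-155 comes from a long non-coding host transcript that is induced when lymphocytes and macrophages are activated. miR-146a is induced through NF-κB and represses Traf6 and Irak1, signalling proteins downstream of receptors that sense microbial products, and miR-146b is its paralogue. In a heart these miRNAs can come from resident macrophages, circulating blood or other cells, and in such bulk libraries fewer cells of a type and less RNA per cell cannot be told apart. The leukocyte name is a working name: a miRNA table holds no protein-coding marker that could test which cells the counts came from.

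The arms that carry the results are printed 5′ to 3′ from RefSeq (GRCm38.p6), with the seed in capitals, so that the arms of 1 hairpin and the paralogues miR-146a and miR-146b can be compared. RefSeq sequences were matched for 11 of the 12 arms.
miR-142a-5p: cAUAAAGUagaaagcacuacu
miR-142a-3p: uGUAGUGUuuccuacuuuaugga
miR-223-3p: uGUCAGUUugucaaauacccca
miR-223-5p: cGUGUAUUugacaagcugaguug
miR-155-5p: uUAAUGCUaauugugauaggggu
miR-146a-5p: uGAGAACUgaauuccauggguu
miR-146b-5p: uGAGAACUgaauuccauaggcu

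The 11 matched arms held 10 different seeds, and the only pair with the same seed was miR-146a-5p and miR-146b-5p. Counted from the 5′ end, those 2 arms were identical at 20 of their bases and differed by G18A and U21C, with the base of miR-146a-5p first. The sources used here do not say how reads that fit both were counted, so each value may hold some reads of the other. The 2 arms of miR-142a and the 2 arms of miR-223 have different seeds.

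The hairpins lie at separate loci (GRCm38, GENCODE M21). Mir142 (chr11:87756864-87756927, plus strand) lies within the span of the lincRNA gene Mir142hg but not wholly inside any of its annotated exons, and the minus-strand hairpin Mir142b overlaps it. Mir155 (chr16:84714140-84714204, plus strand) lies within an exon of its host gene Mir155hg. Mir223 (chrX:96242817-96242926, plus strand) lies within an exon of F630028O10Rik, a non-coding gene of the antisense class. Mir146b (chr19:46342762-46342870, plus strand) lies within the span of the protein-coding gene Mfsd13a but not wholly inside any of its exons. Mir146, the hairpin of miR-146a (chr11:43374397-43374461, minus strand), and Mir150 (chr7:45121757-45121821, plus strand) lie in no other annotated gene.

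Mature counts per library were 14347091 and 17608586 in adult knockouts, 17933518 and 16794840 in adult wild types, 2671957 in the e13.5 knockout and 8944552 in the e13.5 wild type. The 3 counts that a count of 0 allows come to between 0.167 and 0.209 CPM (counts scaled to 1000000 mature counts) in adults, and to 1.12 CPM in the e13.5 knockout and 0.335 CPM in the e13.5 wild type. Levels below are CPM after TMM scaling, which matches libraries on the bulk of their miRNAs. TMM factors ran from 0.567 in adult knockout replicate 2 to 2.17 in the e13.5 knockout, so the scaling matters most for that library. Both e13.5 libraries were shallower than every adult one, and depth and stage cannot be told apart. Cardiac muscle miRNAs, the check of the labelled cell type, held 28.2% and 39.5% of counts in adult knockouts, 31.6% and 33.4% in adult wild types, 9.86% in the e13.5 knockout and 14.6% in the e13.5 wild type. Smooth muscle and fibroblast miRNAs held 8.67% and 9.93% in adult knockouts and 7.48% and 11.8% in adult wild types. They held 21.5% in the e13.5 knockout and 35.5% in the e13.5 wild type, above the cardiac share in both. The check is therefore weaker at e13.5.

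All 6 leukocyte hairpins together made up a small part of every library. Their arms held 0.287% and 0.186% of mature counts in adult knockouts and 0.284% and 0.215% in adult wild types. They held 0.0816% in the e13.5 knockout (Wilson 95% interval 0.0782 to 0.0851) and 0.0492% in the e13.5 wild type (0.0477 to 0.0506). Every adult share was above both e13.5 shares. Intervals cover counting error only, since no molecular identifiers are stated.

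The make-up of these counts also differed between stages. In adults miR-146a gave the largest part in 3 of 4 libraries, with 41.6% of the leukocyte counts in knockout replicate 2 and 44.2% and 44.8% in the wild types. In adult knockout replicate 1 miR-223 gave the most, 28.6%, ahead of miR-150 at 26.0% and miR-146a at 23.3%. At e13.5 miR-146b gave 76.5% in the knockout (Wilson 95% interval 74.6 to 78.2) and 73.4% in the wild type (72.0 to 74.6), whereas in adults it gave between 2.40% and 4.79%. These shares do not depend on library scaling.

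**Figure D1:**
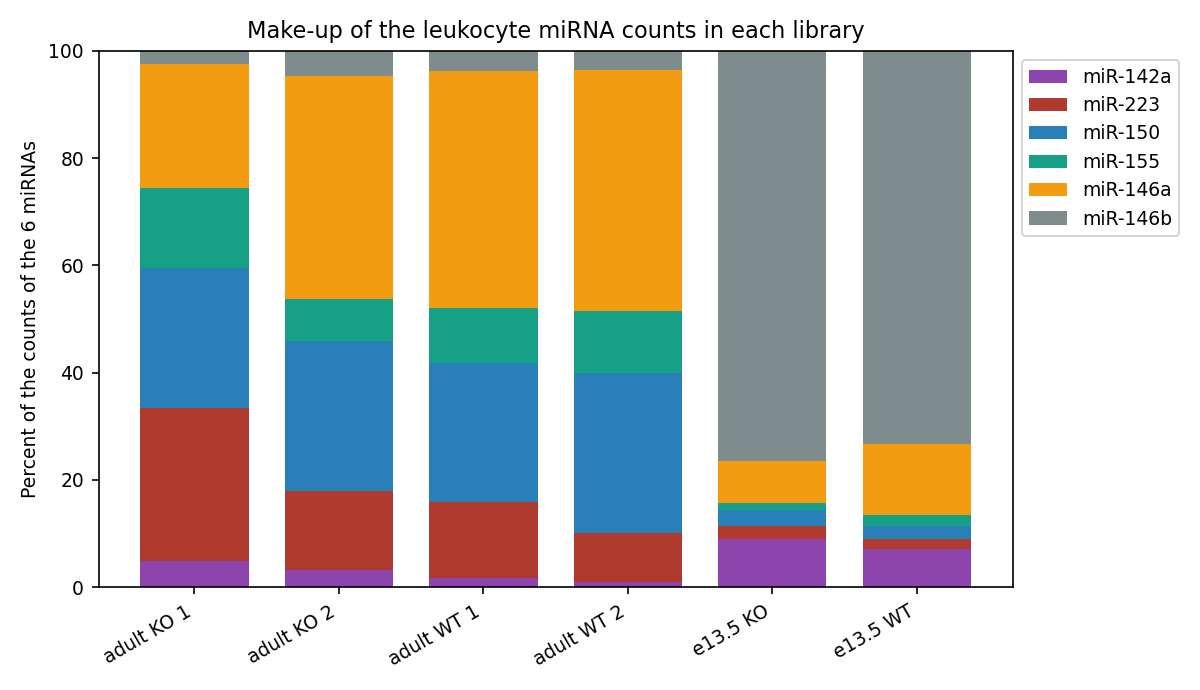
Percent of the counts of the 6 leukocyte miRNAs (both arms summed) that each miRNA gave, with 1 stacked bar per library, adult knockout and wild type on the left and e13.5 on the right. miR-146b took 76.5% and 73.4% of the bar in the e13.5 knockout and wild type and at most 4.79% in an adult library.

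The order of levels also changed. Taking the more abundant arm of each, over the 4 adult libraries miR-146a-5p averaged 1182 ± 328 TMM-scaled CPM (SD, n = 4), followed by miR-150-5p at 835 ± 62.1, miR-223-3p at 504 ± 251, miR-155-5p at 338 ± 80.6, miR-146b-5p at 112 ± 35.3 and miR-142a-5p at 49.7 ± 29.7. Ranges of neighbours in this order overlapped, apart from miR-155-5p and miR-146b-5p, whose lowest and highest adult values were 251 and 157 CPM. At e13.5 miR-146b-5p came first at 289 ± 1.71 CPM (SD, n = 2), then miR-146a-5p at 40.7 ± 16.03, miR-142a-5p at 18.3 ± 7.89, miR-150-5p at 9.78 ± 0.837, miR-155-5p at 6.60 ± 2.001 and miR-223-3p at 4.29 ± 1.19. No neighbours overlapped there, but the lowest value of miR-155-5p and the highest of miR-223-3p were 5.18 and 5.13 CPM, and the last 3 rested on 20 to 102 counts per library. Counts of different sequences were set in order as a description, without a test.

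The first comparison asked how these miRNAs differ between adult and e13.5 cardiomyocytes, with genotype in the model. The abundant arms of miR-223, miR-150, miR-155 and miR-146a rose in adults, by 4.90 to 6.74 on the log2 scale, and miR-146b-5p fell. Of the 12 arms, 9 passed the filter on low counts, and the filter can favour arms that are high in adults. In adults 5 of the 9 rose, 1 fell and 3 did not pass (edgeR quasi-likelihood test, Benjamini-Hochberg adjusted p under 0.05 over 679 miRNAs), so 6 of 9 were called beside 57.7% of all miRNAs tested, of which 28.4% were higher and 29.3% lower. At an unadjusted edgeR p under 0.05 there were 7 arms beside 64.4% of all. For 7 arms all 4 adult values lay above both e13.5 values, as for 37.3% of all, and for 1 arm they lay below, as for 37.1%. The median log2 fold, adult over e13.5, was 4.03 over the 9 arms and 0.065 over all 679. The first is the fold of miR-150-3p itself, 1 of the 5 that rose, which has 3 and 2 counts in the e13.5 knockout and wild type and passed the filter through adults only.

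miR-150-5p, the lymphocyte miRNA, had 768 and 915 TMM-scaled CPM in adult knockouts and 811 and 845 in adult wild types, against 10.4 in the e13.5 knockout and 9.18 in the e13.5 wild type. The 4 adult libraries lay close together and far above both embryonic ones. Its log2 fold, adult over e13.5, was 6.42 (SE 0.58, edgeR adjusted p = 9.11e-05), and it was higher in 4 of 4 adult libraries. Its rare partner miR-150-3p, with 31 to 119 counts in adults and 3 and 2 counts in the e13.5 knockout and wild type, also rose (log2 fold 4.03, SE 1.0, edgeR adjusted p = 0.00853). The arm passed the filter through adults only, so its rise is no support for that of miR-150-5p. With the e13.5 counts no higher than the 3 that a count of 0 allows, the size of the miR-150-3p fold depends on the fit. That call was lost when adult wild-type replicate 1 (log2 fold 3.32, edgeR adjusted p = 0.0526), adult wild-type replicate 2 (3.59, edgeR adjusted p = 0.0513) or the e13.5 wild-type library (3.42, edgeR adjusted p = 0.0682) was left out.

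miR-223-3p, the myeloid miRNA, had 850 and 476 TMM-scaled CPM in adult knockouts and 439 and 251 in adult wild types, against 3.46 in the e13.5 knockout and 5.13 in the e13.5 wild type. Adult levels spread more than 3-fold among themselves, and all 4 were well above both e13.5 libraries. Its log2 fold was 6.74 (SE 0.78, edgeR adjusted p = 0.000181), the highest point value among the leukocyte arms but within 1 SE of that of miR-150-5p.

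miR-155-5p, the activation-induced miRNA, had 446 and 251 TMM-scaled CPM in adult knockouts and 326 and 330.2 in adult wild types, against 5.18 in the e13.5 knockout and 8.01 in the e13.5 wild type. The groups of the 2 stages did not overlap, and the adult knockouts lay on either side of the adult wild types. The log2 fold was 5.69 (SE 0.64, edgeR adjusted p = 0.00017). Its 3p arm, with 0 and 7 counts in adult knockouts, 9 and 13 in adult wild types, 1 in the e13.5 knockout and 5 in the e13.5 wild type, did not pass the filter for this comparison.

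The paralogues miR-146a-5p and miR-146b-5p, which share a seed, went opposite ways. miR-146a-5p had 695 and 1362 TMM-scaled CPM in adult knockouts and 1393 and 1277 in adult wild types, against 29.4 in the e13.5 knockout and 52.0 in the e13.5 wild type. It rose by 4.90 on the log2 scale (SE 0.59, edgeR adjusted p = 0.00021). miR-146b-5p had 71.8 and 157 TMM-scaled CPM in adult knockouts and 117 and 102 in adult wild types, against 288 in the e13.5 knockout and 290.5 in the e13.5 wild type. All 4 adult values were below both embryonic ones, and it fell in adults (log2 fold −1.37, SE 0.46, edgeR adjusted p = 0.0325). Its 3p arm, with 0 and 1 counts in adult knockouts, 9 and 10 in adult wild types and 0 in both e13.5 libraries, did not pass the filter.

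The call of miR-146b-5p was close to the threshold. Its adjusted p was 0.0532 without a filter on low counts and between 0.0592 and 0.129 when either adult wild-type library or either e13.5 library was left out, with log2 folds from −1.36 to −1.89 there. With library totals in place of TMM it was −2.51 (edgeR adjusted p = 0.00107). The ratio of the paralogues within a library needs no scaling: miR-146a-5p counts were 9.68 and 8.69 times those of miR-146b-5p in adult knockouts and 11.9 and 12.5 times in adult wild types, against 0.102 times in the e13.5 knockout and 0.179 times in the e13.5 wild type. The log2 ratio averaged 3.40 ± 0.25 in adults (SD, n = 4) and −2.89 ± 0.57 at e13.5 (SD, n = 2). An exact two-sided permutation test gave p = 0.0667 (0.1 when adjusted over 3 such tests), the smallest that 4 against 2 libraries allow.

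**Figure D2:**
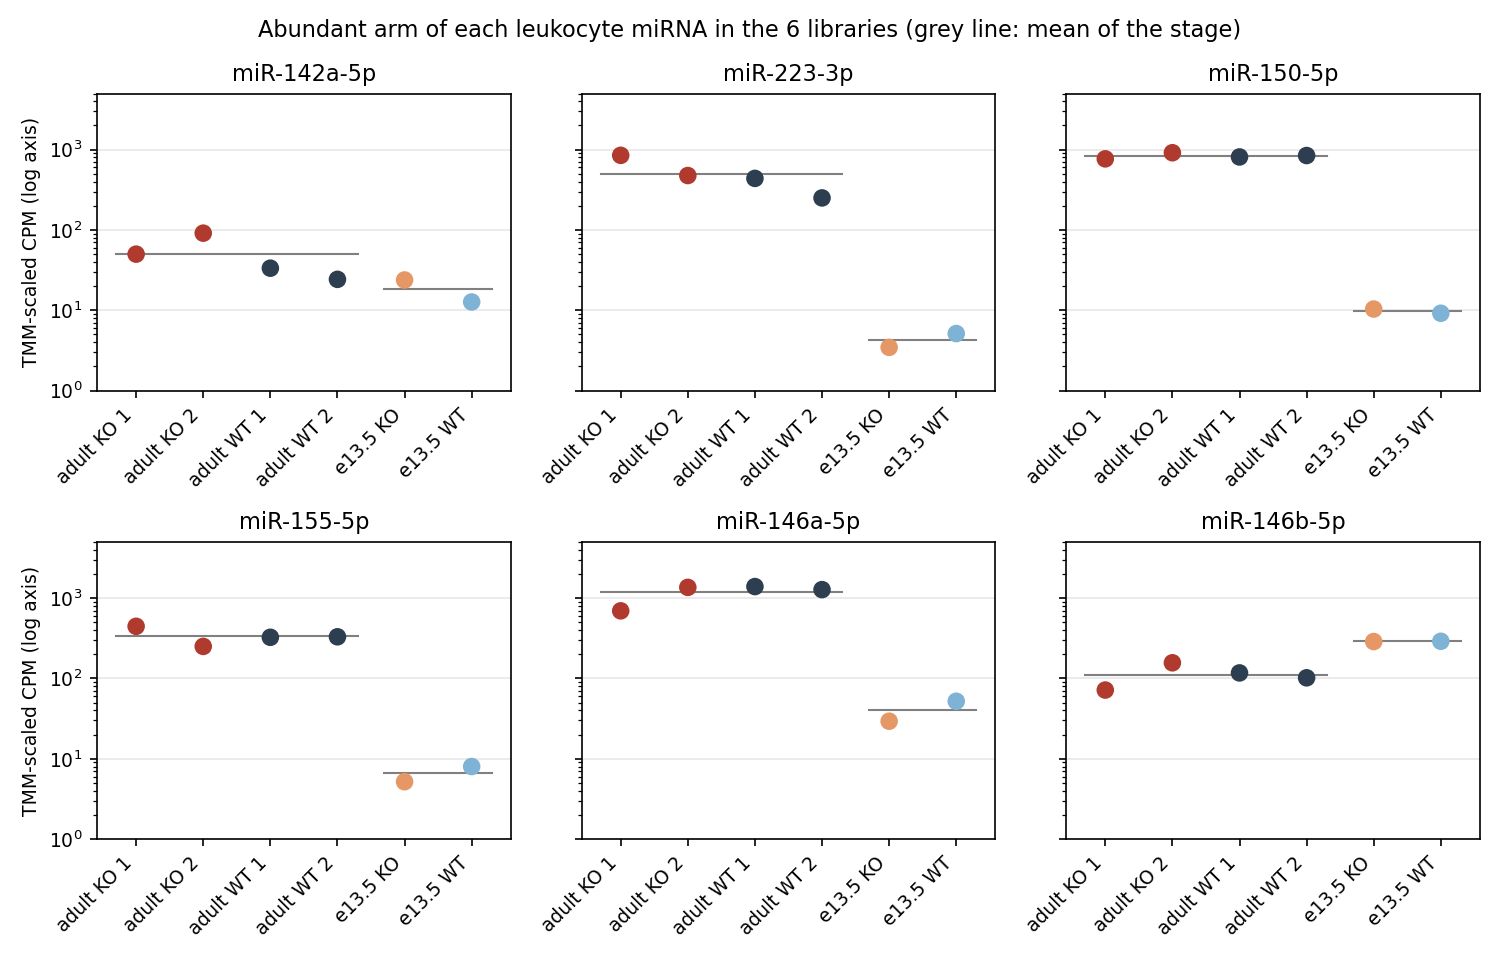
TMM-scaled CPM on a log axis for the more abundant arm of each leukocyte miRNA, with 1 point per library and a grey line at the mean of each stage. For miR-223-3p, miR-150-5p, miR-155-5p and miR-146a-5p the 4 adult points stand far above both e13.5 points, for miR-142a-5p the stages lie close together, and for miR-146b-5p the order is reversed.

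Neither arm of miR-142a, the pan-haematopoietic miRNA, passed between stages. miR-142a-5p had 50.01 and 91.3 TMM-scaled CPM in adult knockouts and 33.4 and 24.3 in adult wild types, against 23.8 in the e13.5 knockout and 12.7 in the e13.5 wild type. The lowest adult value was just above the highest embryonic one. Its log2 fold of 1.37 (SE 0.54) did not pass (edgeR adjusted p = 0.0555), and it was 0.27 with library totals (edgeR adjusted p = 0.752). For miR-142a-3p the stages overlapped, with 93.5 and 14.2 TMM-scaled CPM in adult knockouts and 19.0 and 5.36 in adult wild types, against 9.85 in the e13.5 knockout and 15.2 in the e13.5 wild type. Its log2 fold was 0.83 (SE 1.03, edgeR adjusted p = 0.500), and it was −0.25 without adult knockout replicate 1 and −0.33 without the e13.5 knockout.

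miR-223-5p, the rare arm of the miR-223 hairpin, also did not pass. It had 5.94 and 6.91 TMM-scaled CPM in adult knockouts and 8.03 and 8.12 in adult wild types, against 5.88 in the e13.5 knockout and 2.61 in the e13.5 wild type. The log2 fold was 0.82 (SE 0.69, edgeR adjusted p = 0.326), with −0.34 under library totals. Whether the fold of this arm differs from that of miR-223-3p was tested through the share of the arms below.

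The stage folds of all 9 arms were lower under the other scalings than under TMM. The median log2 fold over all tested miRNAs stood at 0.065 under TMM, at −0.72 under median-of-ratios factors and at −0.93 under library totals. Calls over all miRNAs split into 193 higher and 199 lower in adults with TMM, 133 and 241 under median-of-ratios factors, and 120 and 263 under library totals, so that 49.2%, 35.6% and 31.3% of calls were higher. With each of these scalings 6 leukocyte arms were called, 5 higher and 1 lower. Against a background of 28.4% higher and 29.3% lower among all miRNAs, 8 of 10 tested cardiac muscle arms were higher in adults and 1 lower, both tested endothelial arms were higher, 2 of 8 smooth muscle and fibroblast arms were higher and 6 did not pass, 2 of 5 erythroid arms were higher and 2 lower, and 6 of 7 epithelial arms were lower. Summed TMM-scaled CPM of the erythroid list, with all 5 arms found in every library, was 9958 to 23166 in adults and 603 to 6613 at e13.5. Most of that sum in adults was miR-486a-5p, at 9708 to 22250 CPM, and both arms of miR-486a rose. By contrast miR-451a (log2 fold −2.76, edgeR adjusted p = 0.0146) and miR-144-3p (−3.13, edgeR adjusted p = 0.00797), both made in red cell precursors, fell. For miR-451a the stages overlapped, with 79.5 to 418 TMM-scaled CPM in adults, 304 in the e13.5 wild type and 3485 in the e13.5 knockout. The median log2 fold of the erythroid list was −0.54. Smooth muscle and fibroblast arms, all 8 found in every library, summed to 82895 to 174999 TMM-scaled CPM in adults. Their sums were 99097 in the e13.5 knockout and 286235 in the e13.5 wild type, so the stages overlapped. For the endothelial list, with both arms found in every library, the sum was 17146 to 54749 in adults and 7546 to 15297 at e13.5. For the epithelial list, with 4 to 9 of 10 arms found per library, it was 43.1 to 72.5 in adults and 942 to 1171 at e13.5. The part of these lists in the leukocyte result was not tested.

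**Figure D3:**
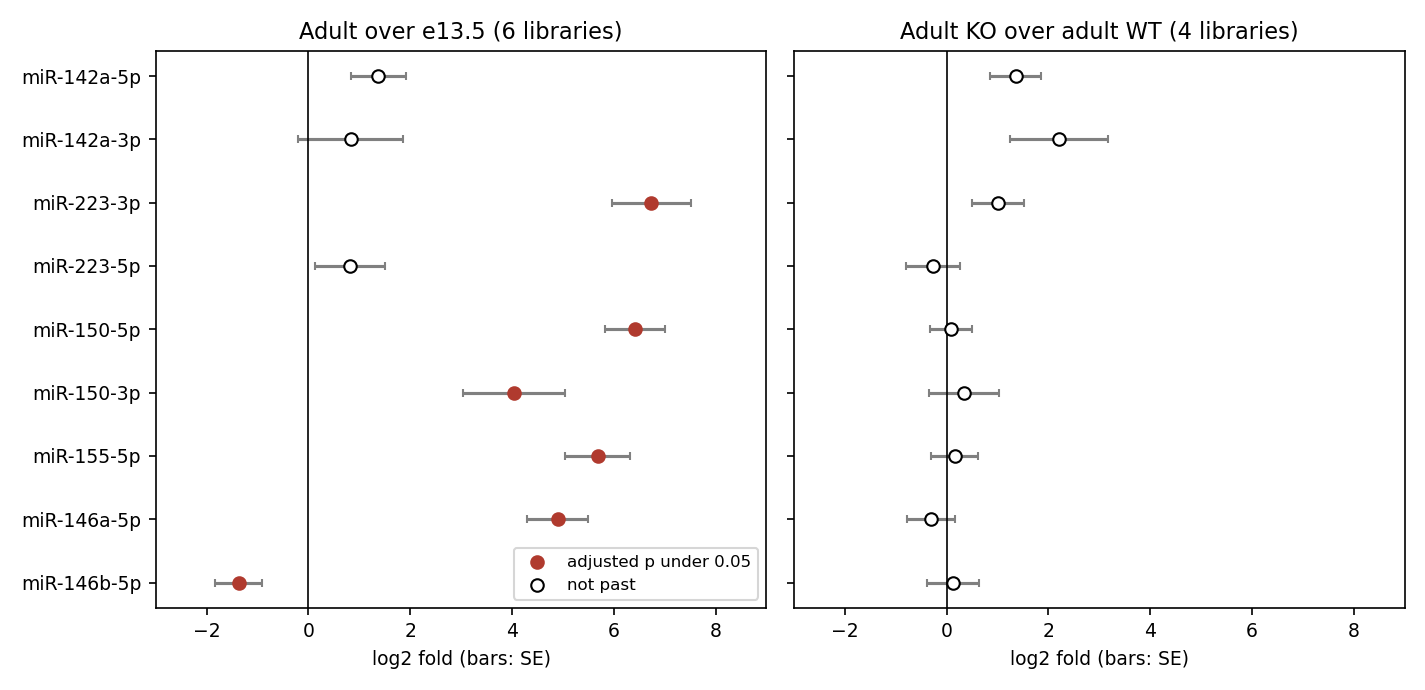
Log2 fold (point) and its SE (bar) from the edgeR fits for the 9 leukocyte arms that passed the filter, adult over e13.5 on the left and adult knockout over adult wild type on the right. Filled red points have an adjusted p under 0.05: 5 arms to the right of 0 and miR-146b-5p to the left in the stage comparison, and no arm in the genotype comparison.

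The 2 arms of miR-223 stood in different proportions at the 2 stages. The 5p arm gave 0.695% and 1.43% of the arm counts in adult knockouts and 1.80% and 3.14% in adult wild types. It gave 63.0% in the e13.5 knockout (34 of 54 counts, Wilson 95% interval 49.6 to 74.6) and 33.7% in the e13.5 wild type (29 of 86 counts, 24.6 to 44.2). The mean was 1.77% ± 1.02 in adults (SD, n = 4) and 48.3% ± 20.7 at e13.5 (SD, n = 2), with no overlap (exact two-sided permutation p = 0.0667, 0.1 when adjusted over 3 tests, the smallest p possible being 0.0667). The e13.5 shares rest on few reads.

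For miR-142a the proportion of the arms varied within groups. Its 5p arm gave 34.8% (Wilson 95% interval 32.8 to 37.0) and 86.5% (84.3 to 88.5) of arm counts in adult knockouts and 63.8% (60.5 to 67.0) and 81.9% (77.7 to 85.5) in adult wild types, against 70.8% (64.0 to 76.7) in the e13.5 knockout and 45.5% (40.0 to 51.0) in the e13.5 wild type. The replicates of each adult genotype differed by more than their counting intervals, and the knockouts lay on either side of the wild types. Between stages the exact two-sided permutation p was 0.667. In the other hairpins 1 arm dominated everywhere: the 5p arm gave at least 94.7% of the arm counts of miR-150, miR-155, miR-146a and miR-146b in each library.

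**Figure D4:**
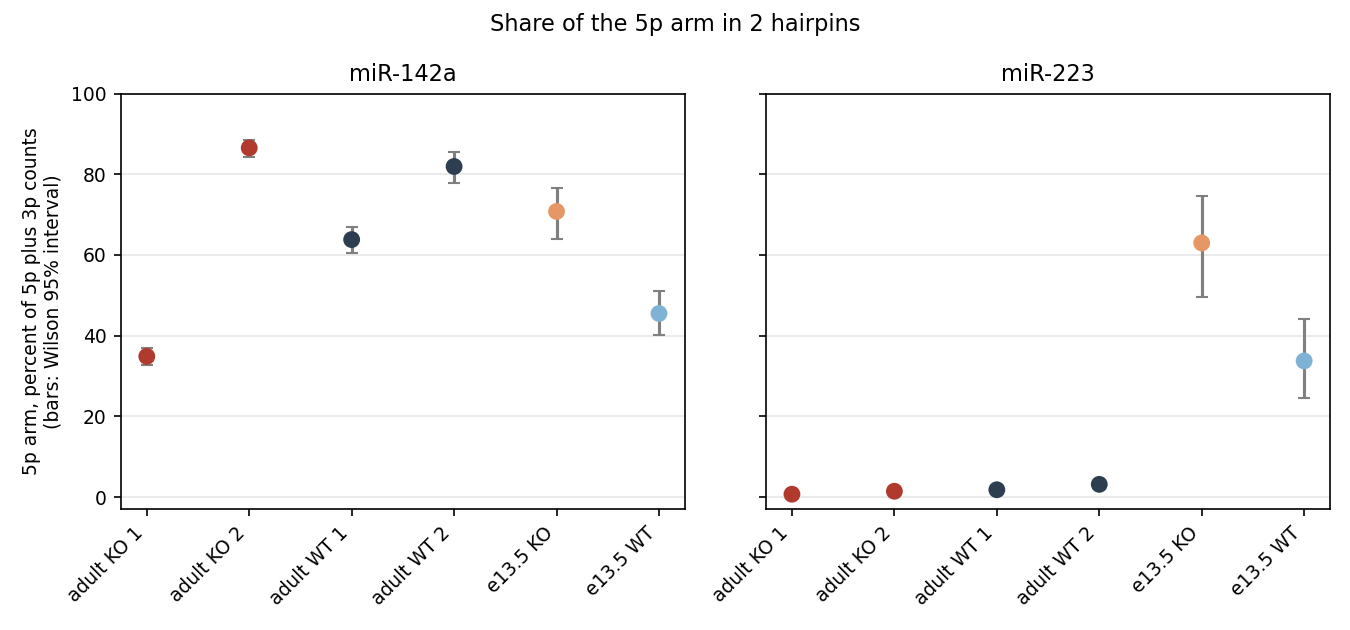
Share of the 5p arm in the counts of both arms, in percent, for miR-142a and miR-223, with 1 point per library and its Wilson 95% interval. miR-223 stays at or below 3.14% in the 4 adult libraries and reaches 63.0% and 33.7% in the e13.5 knockout and wild type, whereas miR-142a ranges from 34.8% to 86.5% among adult libraries.

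The second comparison asked whether loss of lncSync changes these miRNAs in adult cardiomyocytes. No leukocyte arm passed: 0 of 9 were called by edgeR or by DESeq2, against 0.735% of all 544 miRNAs called by edgeR. The 4 called were miR-322-3p, miR-351-5p, miR-503-3p and miR-503-5p, all lower in the knockout (log2 folds −15.0 to −7.91). The adult genotypes thus also differ in these miRNAs, whose part in the leukocyte values was not tested. At an unadjusted p under 0.05 there was 1 leukocyte arm by edgeR, beside 2.94% of all miRNAs. DESeq2 gave 2 such arms, but its share over all miRNAs was not at hand, so that count has no background beside it. The median log2 fold, knockout over wild type, was 0.15 over the 9 arms and 0.077 over all miRNAs tested.

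The arms of miR-142a and miR-223-3p had the highest adult point values. miR-142a-5p, at 50.01 and 91.3 TMM-scaled CPM in adult knockouts against 33.4 and 24.3 in adult wild types, was higher in 2 of 2 knockout libraries, at a log2 fold of 1.35 with SE 0.50 (edgeR quasi-likelihood adjusted p = 0.999, and 0.0306 unadjusted). miR-223-3p, at 850 and 476 in adult knockouts against 439 and 251 in adult wild types, was also above both wild types, at a log2 fold of 1.009 with SE 0.51 (edgeR adjusted p = 0.999). Such a separation, both knockouts above both wild types, was found for 8.09% of the miRNAs tested. The opposite one, which miR-223-5p showed, was found for 15.4%. For miR-142a-3p the groups overlapped and knockout replicate 1 set the value: the fold on the log2 scale was 2.21 with it (SE 0.97, edgeR adjusted p = 0.999) and 0.28 without it.

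The folds depended on the knockout library left out. Without knockout replicate 1, the log2 fold of miR-142a-5p was 1.72. Without knockout replicate 2, it was 2.91 for miR-142a-3p and 1.29 for miR-223-3p. Leaving out any 1 of the 4 adult libraries gave log2 folds from 0.785 to 1.72 for miR-142a-5p. For miR-223-3p these ran from 0.524 to 1.45, so the folds could fall as well as rise. With all 4 adult libraries but no filter on low counts, miR-142a-3p passed (2.19, edgeR adjusted p = 0.0353). The fits that leave out a knockout take their spread from the wild types alone and assume that the remaining knockout shares it. Among adults the erythroid list was highest in knockout replicate 1 and lowest in knockout replicate 2. All 5 of its arms had counts in every library, and they summed to 23166 and 9958 TMM-scaled CPM in adult knockouts and 17411 and 13748 in adult wild types. Other lists had the opposite order. The endothelial list summed to 17146 and 54749 TMM-scaled CPM in adult knockouts and 33040 and 31112 in adult wild types, and the cardiac muscle list, with 10 to 12 of 13 arms found, to 292964 and 696566 in adult knockouts and 350472 and 441707 in adult wild types. The part of these lists in the leukocyte values was not tested.

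The remaining arms had smaller folds, and 0 of them passed. Log2 folds were 0.087 (SE 0.41) for miR-150-5p, 0.34 (SE 0.69) for miR-150-3p, 0.15 (SE 0.46) for miR-155-5p, −0.32 (SE 0.47) for miR-146a-5p, 0.12 (SE 0.51) for miR-146b-5p and −0.27 (SE 0.53) for miR-223-5p, each at an edgeR adjusted p of 0.999. With 2 libraries per genotype, miR-142a-5p did not pass even at a log2 fold of 1.35, so the lack of calls does not show that these arms are unchanged. miR-146a-5p was lowest in knockout replicate 1, at 695 TMM-scaled CPM, while knockout replicate 2, at 1362, lay between the wild types.

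At e13.5, with 1 library per genotype, differences have no replicate check and no test. In CPM of library totals, 0 of the 8 leukocyte arms with 10 or more counts in either library were 4-fold or more higher in the knockout, beside 14.9% of 565 miRNAs, and 0 were 4-fold or more lower, beside 5.31%. miR-142a-5p had 138 counts in the knockout and 141 in the wild type, which is 51.6 and 15.8 CPM, a knockout to wild-type ratio of 3.28 (95% counting interval 2.57 to 4.17) with library totals and 1.88 (1.47 to 2.39) with TMM. miR-223-5p, at 34 counts in the knockout and 29 in the wild type, had a ratio of 3.92 (2.32 to 6.68) with library totals and 2.25 (1.33 to 3.83) with TMM. Both were above 1 with either scaling. The sum of red cell miRNAs differed more between these 2 libraries: the 5 erythroid arms summed to 6613 TMM-scaled CPM in the knockout and 603 in the wild type. Most of both sums was miR-451a, at 3485 in the knockout and 304 in the wild type, and miR-486a-5p, at 3058 and 264. The adult knockout over wild-type log2 fold minus the e13.5 one was −2.48 for miR-451a and −3.48 for miR-486a-5p. It was −1.49 for miR-486a-3p, −0.64 for miR-144-5p and 0.94 (SE 1.56) for miR-144-3p, so the red cell arms did not all differ alike. The part of these red cell miRNAs in the leukocyte ratios was not tested.

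For the other e13.5 arms the scaling set the direction or the size. miR-146b-5p had a ratio of 1.73 (1.63 to 1.84) with library totals and 0.992 (0.934 to 1.05) with TMM. miR-146a-5p had 0.985 (0.825 to 1.17) and 0.564 (0.473 to 0.671), miR-150-5p 1.97 (1.41 to 2.74) and 1.13 (0.807 to 1.57), and miR-155-5p 1.13 (0.720 to 1.72) and 0.647 (0.413 to 0.988). The median log2 fold over the 565 miRNAs was 0.39 with library totals and −0.41 with TMM.

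Over both stages, with 3 libraries per genotype, 0 of 9 leukocyte arms were called by edgeR or DESeq2 (0.736% of 679 miRNAs by edgeR). By each tool 1 arm had an unadjusted p under 0.05, beside 2.06% of all by edgeR and with no share at hand for DESeq2. For edgeR this was miR-142a-5p, whose knockout over wild-type log2 fold was 1.17 (SE 0.49, edgeR adjusted p = 0.989). An interaction term tested the adult knockout difference against the e13.5 one. For it 0 of 10 arms were called by edgeR or DESeq2, and 0 had an unadjusted p under 0.05 by either, where edgeR called 0% of 769 miRNAs and 5.98% were under 0.05 unadjusted. Its highest estimate was that of miR-142a-3p (2.76, SE 1.64, edgeR adjusted p = 0.875), which was 3.52 without adult knockout replicate 2.

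Other miRNAs known from leukocytes, miR-342, miR-652 and miR-147, were set beside these. Of their 6 arms 5 were tested between stages, of which 1 rose in adults, 1 fell and 3 did not pass, so 2 of 5 were called beside 57.7% of all miRNAs. The 2 arms of miR-342 went opposite ways, as the 2 paralogues of miR-146 did. miR-342-3p, abundant in lymphocytes and monocytes, had 394 and 242 TMM-scaled CPM in adult knockouts and 303 and 273 in adult wild types, against 48.4 in the e13.5 knockout and 104 in the e13.5 wild type (log2 fold 2.05, SE 0.55, edgeR adjusted p = 0.0121). miR-342-5p had 4.42 and 1.501 in adult knockouts and 2.04 and 2.995 in adult wild types, against 45.8 in the e13.5 knockout and 11.2 in the e13.5 wild type (log2 fold −3.13, SE 0.70, edgeR adjusted p = 0.00518). miR-652-3p did not pass (log2 fold 0.54, SE 0.44, edgeR adjusted p = 0.301). Nor did miR-652-5p (−1.75, SE 1.14, edgeR adjusted p = 0.208) and miR-147-3p (−3.97, SE 2.59, edgeR adjusted p = 0.211). These 2 arms pointed down and had 2 to 16 and 0 to 19 counts per library. The median log2 fold of the 5 tested arms was −1.75, the fold of miR-652-5p itself. The 4.03 of the 9 leukocyte arms is that of miR-150-3p, which passed the filter through adults only. Both medians thus rest on rare arms and cannot be set against each other.

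The miRNAs whose levels over the 6 libraries were most like those of each leukocyte arm were listed as a description. Likeness was the root-mean-square difference of log2 TMM-scaled CPM after centring each miRNA on its mean, so 0 is the same pattern. miR-155-5p lay nearest to miR-378a-5p (0.149), miR-29b-2-5p (0.202) and let-7b-3p (0.221), and miR-150-5p to miR-23a-3p (0.344), miR-29a-5p (0.346) and miR-29b-3p (0.368). miR-223-3p lay nearest to miR-34a-5p (0.368), miR-221-3p (0.487) and miR-378b (0.503), and miR-146a-5p to miR-338-5p (0.258), miR-26b-5p (0.276) and miR-547-3p (0.331). All of these were high in adults. Some were near the floor at e13.5, where their likeness is poorly measured. In the e13.5 knockout miR-29a-5p had 0.173, miR-547-3p 0.346 and miR-29b-2-5p and miR-338-5p 0.518 TMM-scaled CPM, and 3 counts there come to 0.518. miR-146b-5p lay nearest to miR-421-3p (0.0835), miR-3068-3p (0.141) and miR-362-5p (0.249), which were all higher at e13.5. miR-142a-5p lay nearest to miR-1668 (0.431), which had only 0.180 to 1.10 TMM-scaled CPM, miR-350-5p (0.484) and miR-181c-3p (0.523). Median distances to all miRNAs tested ran from 1.53 for miR-146b-5p to 3.36 for miR-223-3p.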

How the data were processed

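Small RNA libraries were made with the NEXTFLEX Small RNA kit, per the labels' protocols. The authors deposited raw read counts for hairpins and mature arms in all 6 libraries. Per the submitters' processing notes, mm10 was used. The sources used here name no aligner, no counter and no rule for reads with several matches.

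Of 3208 rows, 1974 were mature arms. Arms whose counts agreed within 1% (total at least 20, counts in at least 3 libraries) were merged, which removed 22 and left 1952, and no leukocyte arm was affected. Mature counts totalled 2671957 to 17933518 per library.

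edgeR 4.0.16 in R 4.3.3 was run with TMM scaling, filterByExpr (minimum count 10), glmQLFit and glmQLFTest, two-sided, with Benjamini-Hochberg adjustment over all miRNAs tested and a threshold of 0.05. Adult genotypes used the 4 adult libraries, stage and genotype an additive model over 6, and the interaction group means, so that its spread comes from adult replicates. Residual degrees of freedom were 2, 3 and 2. Stage folds, planned as e13.5 over adult, are given as adult over e13.5, and the interaction as adult minus e13.5, from the same fits. SEs are the log2 fold over the root of F. TMM-scaled CPM uses factors over all 6 libraries. Scripts were tested on simulated data. Alternatives included DESeq2 1.42.0, other scalings, no filter, unmerged arms, a replicate block and leaving out libraries. Named miRNAs were all arms of the 6 hairpins, the marker lists and the 3 nearest patterns of each abundant arm. Members and lists were chosen with earlier results of these data known.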

Additional observations from a re-analysis of the deposited data

Results flagged for a closer look

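Hairpin rows of the table hold reads that lie in neither mature arm, which none of the comparisons used. Among 36 pairs of hairpin and library, 11 had more than the 3 counts that a count of 0 allows, all in the hairpins of miR-142a and miR-223. For miR-142a these reads numbered 12 and 86 in adult knockouts and 46 and 31 in adult wild types, with 4 in the e13.5 knockout and 4 in the e13.5 wild type, and they made up between 0.602% and 7.62% of the hairpin's counts. For miR-223 they numbered 35 and 41 in adult knockouts, 67 and 49 in adult wild types and 7 in the e13.5 wild type, with 1 in the e13.5 knockout, between 0.296% and 7.53% of the hairpin's counts. Hairpins of miR-150, miR-155, miR-146a and miR-146b had at most 1 such read in a library.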

How the results depend on the processing

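In the stage comparison miR-223-3p, miR-150-5p, miR-155-5p and miR-146a-5p were called higher in adults under every alternative run. Stage calls over all miRNAs numbered 231 with knockout libraries only and 261 to 381 with 1 library left out (261 without the e13.5 knockout, leukocyte arms 4 to 6), against 392. In adult genotypes the count was 9 without a filter (1 leukocyte arm) and 5 to 47 with 1 library left out (0 to 2 leukocyte arms; 35 without knockout replicate 1, 47 without knockout replicate 2), against 4. Genotype over both stages gave 3 to 5 calls with 1 library left out (3 without either adult wild type), against 5. The interaction gave 1 with library totals, 2 without a filter, 4 by DESeq2 and 0 to 87 with 1 library left out (0 to 1 leukocyte arms; 87 without adult knockout replicate 1, 40 without replicate 2), against 0. The causes were not tested.

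Directions that turned belonged to folds that did not pass or had no test. In adults library totals gave −0.21 for miR-146b-5p and −0.12 for miR-150-5p, and leaving out 1 library gave −0.94 to 0.086 for miR-146a-5p, −0.61 to 0.57 for miR-146b-5p, −0.11 to 0.20 for miR-150-5p, −0.59 to 0.82 for miR-150-3p and −0.33 to 0.44 for miR-155-5p. Between stages miR-223-5p gave −0.34 with library totals and −0.34 in knockout libraries only. miR-142a-3p gave −0.33 in wild-type libraries only and −0.33 to 2.38 with 1 library left out. At e13.5, knockout to wild-type ratios with TMM and median-of-ratios factors were 0.647 and 0.714 for miR-142a-3p, 0.673 and 0.743 for miR-223-3p and 0.647 and 0.714 for miR-155-5p, and 0.992 with TMM for miR-146b-5p.

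Adult replicates share only a number: their deviations correlated at 0.0091 across 544 miRNAs. With the replicate block 5 miRNAs were called in adult genotypes, and 0 leukocyte arms. Depth limits the e13.5 values most, where miR-223, miR-150 and miR-155 rest on 1 to 102 counts per arm.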

Other observations

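miR-142b, annotated on the strand opposite to miR-142a, had 1 count in adult knockout replicate 1 and 0 in the other libraries. By count, miR-146a-5p ranked 77 and 60 among mature miRNAs in adult knockouts and 57 and 60 in adult wild types, against 203 in the e13.5 knockout and 186 in the e13.5 wild type. miR-146b-5p ranked 155 and 128 in adult knockouts and 138 and 147 in adult wild types, against 87 in the e13.5 knockout and 91 in the e13.5 wild type.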
